A study of Mus musculus with 12 samples.

Results

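The genotype by Dox interaction asks whether doxycycline (Dox) moved a gene differently in tumours with and without APC. For each gene it is the Dox minus no-Dox difference in APC-KO tumours minus the Dox minus no-Dox difference in APC-WT tumours. A value below 0 means that the Dox difference of APC-KO tumours lay under that of APC-WT tumours, and a value above 0 that it lay over it. Its members were all 18193 genes with a probe set of a single symbol, whatever their values, and 11070 of them, with a mean log2 value of at least 5.55 over the arrays, were tested. The other 7123 lay under this filter.

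RNA of 12 tumours had been measured on Affymetrix arrays, 3 tumours in each of 4 groups. All had been grown in the cecum of C57BL/6 mice from the murine colon carcinoma line MC38, with an inducible hairpin against Tdo2 (ishTDO2), so the hairpin was present in every group and Dox water was what induced it. The groups were APC-WT without Dox, APC-WT with Dox, APC-KO without Dox and APC-KO with Dox. The labels give neither the length of treatment, nor the age of the mice, nor whether the APC-KO line is 1 clone, nor whether each tumour of a group is from its own mouse. The p-values here hence cover the spread among these tumours alone, and part of it may be technical. Tumours with Dox and no hairpin were not analysed here, and an effect of Dox itself cannot be told apart from one of the hairpin. Host genes were bright, with means of 13.18 for the lysozyme gene Lyz2 and 12.66 for the collagen gene Col1a2. RNA of tumour and host cells was therefore read together, and in such bulk samples fewer cells of a type and less RNA per cell cannot be told apart. Of 12 colon epithelium markers, Krt8 and Epcam had means of 9.54 and 7.25, while 8, among them Krt20, Cdx2 and Vil1, lay under the filter.

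TDO2 opens the ring of tryptophan in the first step of the kynurenine pathway, and kynurenine is a ligand of the aryl hydrocarbon receptor. APC is a component of the complex that marks beta-catenin for destruction, and its loss raises Wnt target genes in the colon. An interaction is the part of the response that depends on the genotype, which is the comparison behind the term synthetic essentiality. Tdo2 could not be followed: its brightest probe set read between 3.62 and 4.17 on the 12 arrays, under the filter on each, so a knockdown cannot be checked on these arrays. Apc had an interaction of -0.13 ± 0.09 (log2, ± SE of the limma fit, adjusted p = 0.612). Which exons of Apc were deleted is not stated in the labels.

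Several groups of genes described below share a short motif in their promoters. The following stretches lie upstream of the gene start, from RefSeq with coordinates of GRCm38.p6, and are shown because their genes stood at the front of their groups or carry the motif most plainly. Capitals mark the motif, on either strand. The first group holds targets of hypoxia-inducible factor (HIF) and glycolysis genes, with the core ACGTG or GCGTG.
Egln3 at chr12:54204069-54204124, minus strand: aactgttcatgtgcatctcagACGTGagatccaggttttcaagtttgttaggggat
Bnip3 at chr7:138909589-138909653, minus strand: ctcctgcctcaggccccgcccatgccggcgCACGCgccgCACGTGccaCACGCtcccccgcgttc
Slc2a1 at chr4:119108654-119108718, plus strand: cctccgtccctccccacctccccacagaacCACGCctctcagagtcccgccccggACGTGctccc
Pgam1 at chr19:41911666-41911730, plus strand: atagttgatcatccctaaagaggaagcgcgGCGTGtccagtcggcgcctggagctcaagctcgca
The core was present in 18 of 18 promoters of HIF targets and 14 of 16 of glycolysis genes, but also in 67.9% of the 8957 tested genes that have a promoter in the table, so it separates them little. Chemokine genes of neutrophil attraction carry the kappaB core GGAANTTCC, here in the promoters of 2 of 6 against 1.32% of the tested genes.
Cxcl1 at chr5:90891145-90891213, plus strand: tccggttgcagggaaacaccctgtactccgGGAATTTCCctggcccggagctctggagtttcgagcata
Cxcl2 at chr5:90903773-90903841, plus strand: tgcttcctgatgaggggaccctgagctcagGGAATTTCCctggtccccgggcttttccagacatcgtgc
Mitosis genes carry the cell cycle homology region TTTGAA, in 13 of 20 promoters against 14.1% of the tested genes.
Kif11 at chr19:37376333-37376381, plus strand: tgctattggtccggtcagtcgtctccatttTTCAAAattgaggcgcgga
Ccnb2 at chr9:70421686-70421751, minus strand: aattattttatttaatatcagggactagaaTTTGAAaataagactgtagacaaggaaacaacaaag
Interferon-stimulated genes carry GAAANNGAA, the core of the interferon response element, in 12 of 19 promoters against 8.59% of the tested genes.
Stat2 at chr10:128270248-128270315, plus strand: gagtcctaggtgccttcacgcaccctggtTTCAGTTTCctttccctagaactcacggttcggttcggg
Ifih1 at chr2:62646329-62646397, minus strand: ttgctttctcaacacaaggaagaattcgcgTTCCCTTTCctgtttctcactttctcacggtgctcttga
Heat shock genes carry GAANNTTC, the core of the heat shock element, in 9 of 15 promoters against 6.78% of the tested genes.
Hspa1b at chr17:34959305-34959372, minus strand: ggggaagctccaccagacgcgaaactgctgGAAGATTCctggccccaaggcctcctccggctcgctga
Dnaja1 at chr4:40722314-40722381, plus strand: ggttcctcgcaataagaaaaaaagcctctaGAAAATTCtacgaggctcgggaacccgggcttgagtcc
Each window ran from 250 bases before to 50 after the start, overlapping matches of different motifs were each counted, and a match describes letters and not binding. The groups are known regulons of these factors, so the shared motifs were to be found in them whatever the arrays read.

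No gene passed the interaction test. At an adjusted p under 0.05 the share called was 0% of 11070 genes, and the smallest adjusted p was 0.129, held by 11 genes. At an unadjusted p under 0.05 there were 1312 genes, 621 with an interaction below 0 (5.61% of those tested) and 691 above 0 (6.24%). The interaction is a difference of differences and its error is the larger for it, with a median SE of 0.112 against 0.0795 for a Dox difference in a single genotype. Every interaction below is thus a measured value whose difference from 0 did not pass, and counts at an unadjusted p describe where such values gather.

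Large values lay on both sides. Interactions of 1 or more in size on the log2 scale were 25 below and 16 above 0, while the median over all genes was 0.01 and the middle 95% of genes lay between -0.34 and 0.39. With Dox, 60 genes changed in APC-KO tumours (56 fell, 0.506% of those tested, and 4 rose, 0.0361%) and 3 in APC-WT tumours (0.0271%), with none in common. The 3 of APC-WT tumours were the cyclin G2 gene Ccng2 (-0.76 ± 0.09) and Ms4a4d (-1.82 ± 0.24), which fell, and the translation initiation factor-like gene Eif1ad (0.39 ± 0.05), which rose. Single arrays carried these calls. In APC-KO tumours, dropping Dox replicate 3 left 1 gene, dropping Dox replicate 2 left 14, dropping Dox replicate 1 gave 92, and 4 were left when no-Dox replicate 1 was dropped, while dropping APC-WT Dox replicate 2 left 38. In APC-WT tumours the 3 became 418 when no-Dox replicate 3 was dropped, 0 when no-Dox replicate 1 or 2 or Dox replicate 1 or 2 was, 1 when Dox replicate 3 was, and 8 when APC-KO no-Dox replicate 2 was. Passing in 1 genotype and not in the other does not show a difference between them, and the test of that difference is the interaction, which no gene passed.

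Across the tested genes the Dox differences of the 2 genotypes, which share no array, had a Pearson r of 0.107 and a Spearman rho of 0.151, and 54.6% had the same sign. This is a description over genes, which are not independent. The spread of the interaction (SD over genes 0.222) exceeded that of the Dox differences (0.172 in the APC-KO and 0.159 in the APC-WT tumours). Of the 60 genes that passed in APC-KO tumours, 47 had the same sign in APC-WT tumours and 13 the opposite one, with medians of -0.68 and -0.14. These genes were chosen by their APC-KO values, so the sizes are a description and no test of a difference.

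**Figure D1:**
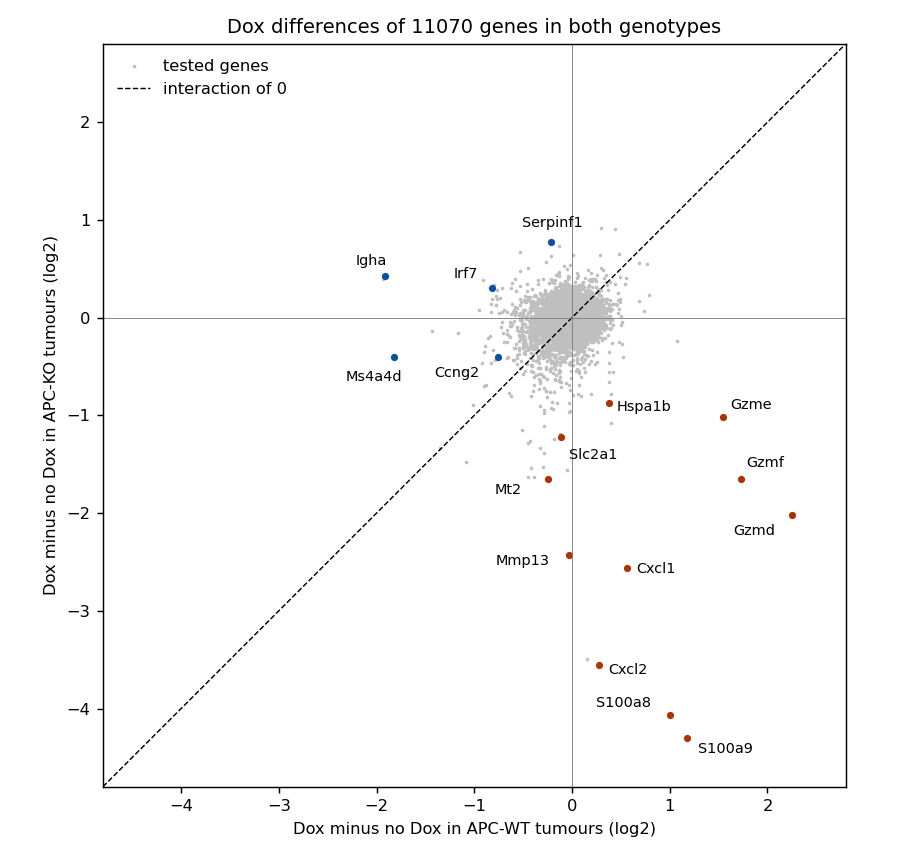
Dox minus no-Dox differences (log2) of the 11070 tested genes in APC-WT tumours (horizontal) and APC-KO tumours (vertical), each over 3 against 3 arrays, with the dashed line where the interaction is 0. The genes far from the line lay mostly under it, led by S100a9 and S100a8 with interactions of -5.47 and -5.07, while Igha (2.34) and Ms4a4d (1.42) lay above it.

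Of the 621 genes below 0 at an unadjusted p under 0.05, 526 had opposite Dox signs in the 2 genotypes, 73 were lower with Dox in both and 22 higher in both. Of the 691 above 0, 622 had opposite signs, 21 were higher and 48 lower with Dox in both. A large interaction favours opposite signs, so these counts describe the genes and support nothing. A stricter view asks for groups that do not overlap on any array in either genotype: Dox was lower in APC-KO and higher in APC-WT tumours for 86 genes (0.777% of those tested), and the reverse for 50 (0.452%). The share of genes without overlap in a single genotype was not counted, so such separations named below are descriptions only. Read as the genotype difference with and without Dox, the gap between APC-KO and APC-WT was larger without Dox for 427 of the 621 and 376 of the 691. That share over all tested genes was not counted, so these counts too are a description only.

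The neutrophil genes S100a8 and S100a9 and the chemokine genes Cxcl1 and Cxcl2 had the largest negative interactions among the named genes outside the granzymes. S100a8 and S100a9 encode the subunits of calprotectin, a calcium- and zinc-binding protein abundant in neutrophils. S100a9 read 4.33, 6.53 and 6.89 in APC-WT tumours without Dox, 6.61, 6.44 and 8.21 in APC-WT tumours with Dox, 10.00, 9.51 and 7.61 in APC-KO tumours without Dox, and 4.78, 5.43 and 4.01 in APC-KO tumours with Dox. On APC-KO arrays without Dox, 2 of 3 values were the highest of all and the other lay inside the APC-WT range, and on APC-KO arrays with Dox all 3 were under the filter. Its interaction was -5.47 ± 0.99 (adjusted p = 0.129), from -4.30 ± 0.70 in APC-KO tumours, which passed (adjusted p = 0.0133), and 1.17 ± 0.70 in APC-WT tumours. S100a8 ran alongside, reading 4.25, 6.25 and 6.56 in APC-WT tumours without Dox, 6.32, 6.05 and 7.68 in APC-WT tumours with Dox, 9.35, 9.17 and 7.35 in APC-KO tumours without Dox, and 4.50, 5.32 and 3.86 in APC-KO tumours with Dox, with an interaction of -5.07 ± 0.90. With values under the filter raised to it, the interactions were -4.25 and -3.64, so part of each size lies in the dim range.

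Other neutrophil markers did not give such values. Of the 12 listed, 10 were measured and 4 tested. Beside S100a8 and S100a9 these were the granulocyte colony-stimulating factor receptor gene Csf3r, with an interaction of -0.23 ± 0.13, and Mmp9, with -0.38. Cxcr2, Ngp, Camp, Ltf, Elane and Mmp8 lay under the filter, with means between 3.72 and 4.98. Most markers that define the neutrophil were thus too dim to test, and whether neutrophil number moves with these values was not tested.

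Cxcl1 and Cxcl2 encode ligands of CXCR2 that draw neutrophils. Cxcl1 read 7.21, 7.51 and 8.80 in APC-WT tumours without Dox, 8.07, 8.12 and 9.02 in APC-WT tumours with Dox, 10.44, 10.64 and 9.07 in APC-KO tumours without Dox, and 8.24, 7.24 and 6.99 in APC-KO tumours with Dox. Without Dox the APC-KO arrays all lay above the APC-WT ones, and with Dox all 3 lay below their own no-Dox group and inside or under the APC-WT range. The interaction was -3.13 ± 0.65 (adjusted p = 0.149), with -2.57 ± 0.46 in APC-KO tumours (adjusted p = 0.0262) and 0.56 ± 0.46 in APC-WT tumours. Cxcl2 read 4.88, 6.43 and 6.10 in APC-WT tumours without Dox, 5.72, 5.18 and 7.34 in APC-WT tumours with Dox, 8.60, 7.79 and 7.28 in APC-KO tumours without Dox, and 5.22, 3.70 and 4.10 in APC-KO tumours with Dox. It had an interaction of -3.82 ± 0.77, or -2.51 with dim values raised to the filter. Over the list of neutrophil chemokines and inflammatory cytokines, 9 of 16 members were tested. The 9 interactions were all below 0 (47.8% over all genes), 5 had an unadjusted p under 0.05 (5.61%), and the median was -0.73.

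Those 5 included Il1b, the cytokine interleukin-1 beta (-1.17 ± 0.43), Ccl3, a chemokine for monocytes and lymphocytes (-1.05 ± 0.39), and Ptgs2, the inducible cyclooxygenase (-0.72 ± 0.27). For each of these 3, the Dox and no-Dox arrays of APC-KO tumours did not overlap, and those of APC-WT tumours did. The 3 were named for their small p, so this describes them and supports nothing. The other 7 members, among them Cxcl3, Cxcl5, Il6 and Csf3, lay under the filter and were not tested. Leaving out single arrays moved the list's median between -1.0 and -0.45. The bound nearer 0 came without APC-KO no Dox replicate 1. Without that array 8 of the 9 were below 0, and likewise without APC-WT no Dox replicate 1. The bound of -1.0 came without APC-KO no Dox replicate 3, the array on which S100a8, S100a9, Cxcl1 and Cxcl2 read lowest in their group. Cxcl14, a chemokine of epithelium and stroma outside this list, had -1.07 ± 0.22. All 3 of its APC-KO Dox values were under the filter, and the interaction was -0.55 with values raised to it.

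**Figure D2:**
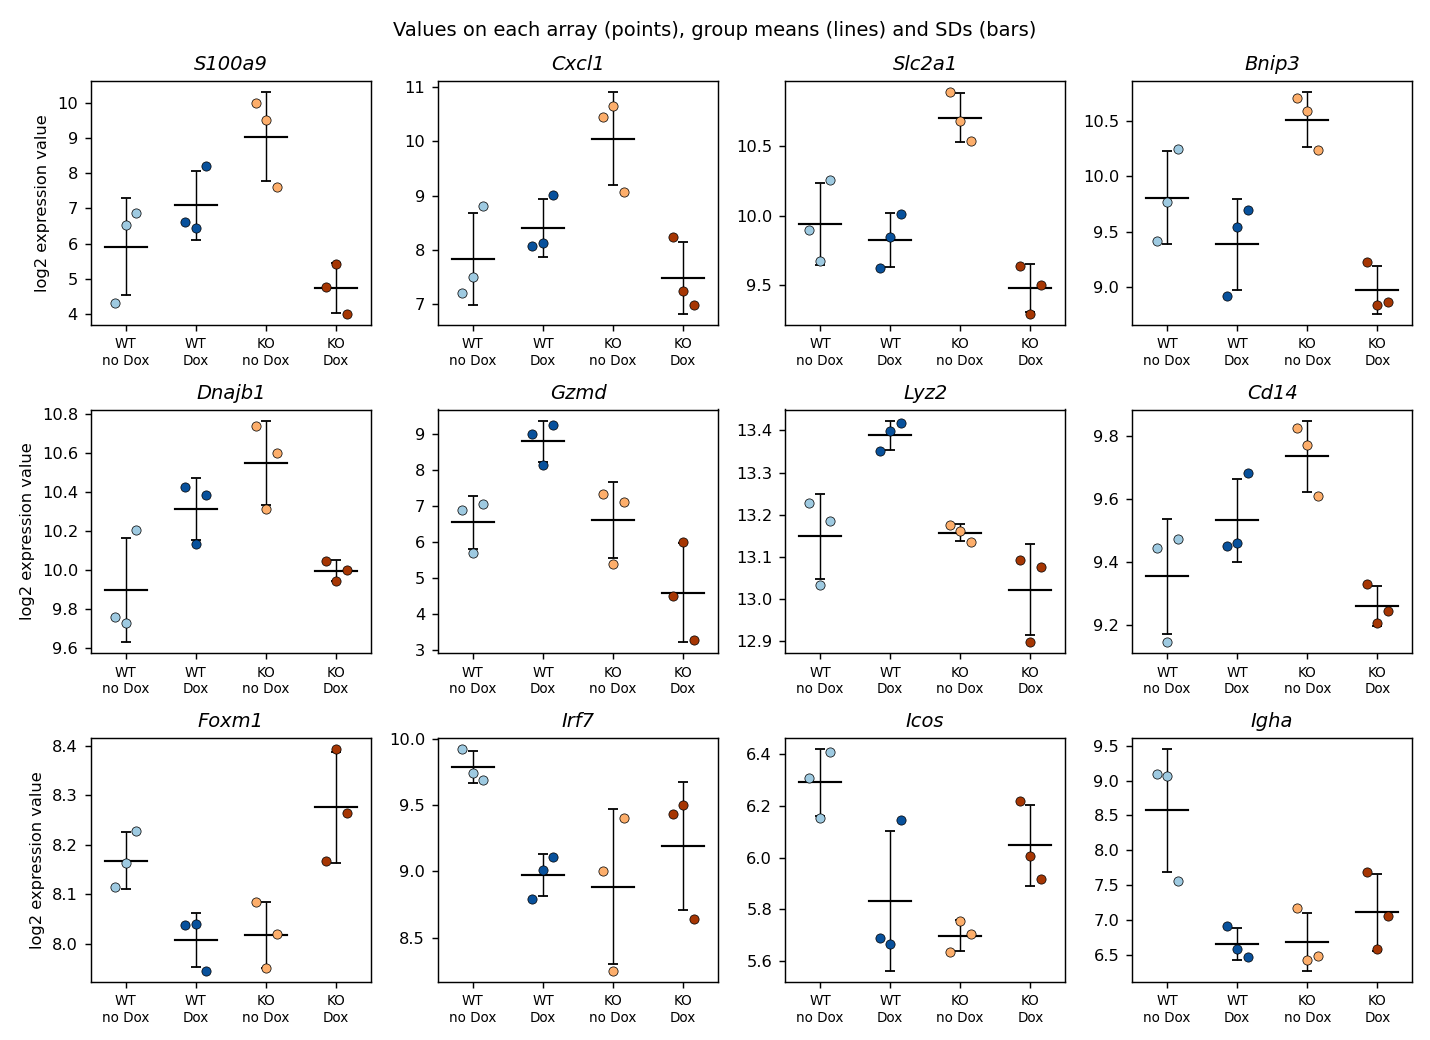
Log2 expression values of 12 genes on each array (points, 3 per group), with group means (lines) and SDs (bars), and a vertical axis of its own for each gene. In S100a9, Cxcl1, Slc2a1, Bnip3, Dnajb1 and Cd14 the 3 APC-KO Dox arrays lie below the 3 APC-KO no-Dox arrays, in Foxm1 and Icos above them, and in Gzmd, Lyz2, Irf7 and Igha the APC-WT groups do not overlap.

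HIF targets and glycolysis genes gave the broadest set of negative interactions. HIF is the transcription factor that is stabilised when oxygen is low, and it drives glucose uptake, glycolysis and vessel growth. Slc2a1, which encodes the glucose transporter GLUT1, read 9.90, 9.67 and 10.26 in APC-WT tumours without Dox, 9.62, 9.85 and 10.01 in APC-WT tumours with Dox, 10.89, 10.68 and 10.54 in APC-KO tumours without Dox, and 9.64, 9.30 and 9.50 in APC-KO tumours with Dox. The 3 APC-KO no-Dox arrays lay above all 9 others, and 2 of the APC-KO Dox arrays lay at the bottom. Slc2a1 had the interaction of smallest p of the list, -1.11 ± 0.20 (adjusted p = 0.129). It fell with Dox in APC-KO tumours (-1.22 ± 0.14, adjusted p = 0.00631) and differed by -0.11 ± 0.14 in APC-WT tumours.

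Of the 17 glycolysis genes tested, 14 had an interaction below 0, 9 of them at an unadjusted p under 0.05. With Dox in APC-KO tumours 8 fell. Over all genes these shares were 47.8%, 5.61% and 0.506%. The median interaction was -0.31. Hexokinase 2, which traps glucose in the cell, had -0.48 ± 0.14, the phosphofructokinase subunit gene Pfkl -0.50 ± 0.15, the aldolase gene Aldoa -0.46 ± 0.14 and the phosphoglycerate mutase gene Pgam1 -0.27 ± 0.07. The glucose transporter gene Slc2a3 (0.02) was close to 0. Aldoa and Pfkl fell in APC-KO tumours (-0.63 ± 0.10 and -0.64 ± 0.11), and in APC-WT tumours they lay lower by less (-0.17 ± 0.10 and -0.14 ± 0.11).

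Of 20 further HIF targets tested, 19 were below 0, 10 of these at an unadjusted p under 0.05, and 7 fell in APC-KO tumours. Over all genes these shares were 47.8%, 5.61% and 0.506%. The median was -0.30, with a median Dox difference of -0.50 in APC-KO and -0.20 in APC-WT tumours. Bnip3, a mitophagy receptor, read 9.41, 9.77 and 10.24 in APC-WT tumours without Dox, 8.92, 9.54 and 9.69 in APC-WT tumours with Dox, 10.71, 10.59 and 10.23 in APC-KO tumours without Dox, and 9.22, 8.84 and 8.86 in APC-KO tumours with Dox. All APC-KO Dox arrays lay under every APC-KO no-Dox array, and APC-WT arrays overlapped between treatments. Its interaction was -1.11 ± 0.30. Ankrd37 had -1.24 ± 0.32, the oxidoreductase gene of the endoplasmic reticulum Ero1a -0.94 ± 0.26, and Egln3, the prolyl hydroxylase that marks HIF for destruction, -0.69 ± 0.18.

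Egln3 was lower with Dox on every array in both genotypes, reading 9.81, 9.83 and 10.10 in APC-WT tumours without Dox, 9.52, 9.69 and 9.66 in APC-WT tumours with Dox, 10.51, 10.99 and 10.41 in APC-KO tumours without Dox, and 9.81, 9.50 and 9.68 in APC-KO tumours with Dox. Its interaction is thus a difference in size and not in direction. Vegfa, the vascular growth factor, read 8.85, 8.66 and 9.27 in APC-WT tumours without Dox, 9.27, 9.41 and 9.24 in APC-WT tumours with Dox, 9.52, 9.68 and 9.48 in APC-KO tumours without Dox, and 9.18, 8.55 and 9.30 in APC-KO tumours with Dox, lower with Dox in APC-KO tumours without overlap and with a higher mean in APC-WT tumours, and its interaction was -0.93 ± 0.24 (adjusted p = 0.226). Stc2 (0.03) was the HIF target above 0. Without single arrays the medians of both lists stayed between -0.39 and -0.22. The genotype difference of HIF targets was 0.31 in the median without Dox and -0.19 with Dox, each relative to APC-WT.

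The genes Mt1 and Mt2 of metallothioneins, which bind zinc and copper, had interactions of the same sign. Of the 4 tested members of their list, 3 were below 0 (47.8% over all genes) and 1 above. At an unadjusted p under 0.05 there were 2, both below 0 (5.61% over all genes). The list's median was -0.64 (-0.77 to -0.54 with an array left out), so these 2 genes do not stand for every member. Mt2 read 11.19, 11.70 and 12.03 in APC-WT tumours without Dox, 11.01, 11.41 and 11.76 in APC-WT tumours with Dox, 11.45, 11.74 and 11.14 in APC-KO tumours without Dox, and 10.19, 9.93 and 9.26 in APC-KO tumours with Dox. APC-WT arrays overlapped between treatments, and the APC-KO Dox arrays lay below all 9 others. The interaction was -1.41 ± 0.36 for Mt2 and -1.23 ± 0.32 for Mt1, and both fell in APC-KO tumours (-1.65 ± 0.25 and -1.53 ± 0.23).

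Among 19 immediate early genes, whose transcription answers signals within minutes, 16 were below 0 (47.8% over all genes), 3 at an unadjusted p under 0.05 (5.61%). The median was -0.16 (-0.28 to -0.13 with an array left out). Ier3, also a target of NF-kappaB, had the largest (-1.51 ± 0.34, adjusted p = 0.189), reading 9.28, 8.69 and 9.55 in APC-WT tumours without Dox, 8.96, 9.06 and 9.35 in APC-WT tumours with Dox, 10.87, 11.02 and 10.23 in APC-KO tumours without Dox, and 9.59, 8.92 and 8.92 in APC-KO tumours with Dox. On APC-KO arrays without Dox it stood above every other array. The p53 targets had a median of -0.07 (-0.12 to -0.02 with an array left out). At an unadjusted p under 0.05 there were 2 of 12, both below 0 (5.61% over all genes). They were Zmat3 (-0.52 ± 0.12) and the cell cycle inhibitor gene Cdkn1a (-0.38 ± 0.14). Cdkn1a fell in APC-KO tumours (-0.63 ± 0.10).

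**Figure D3:**
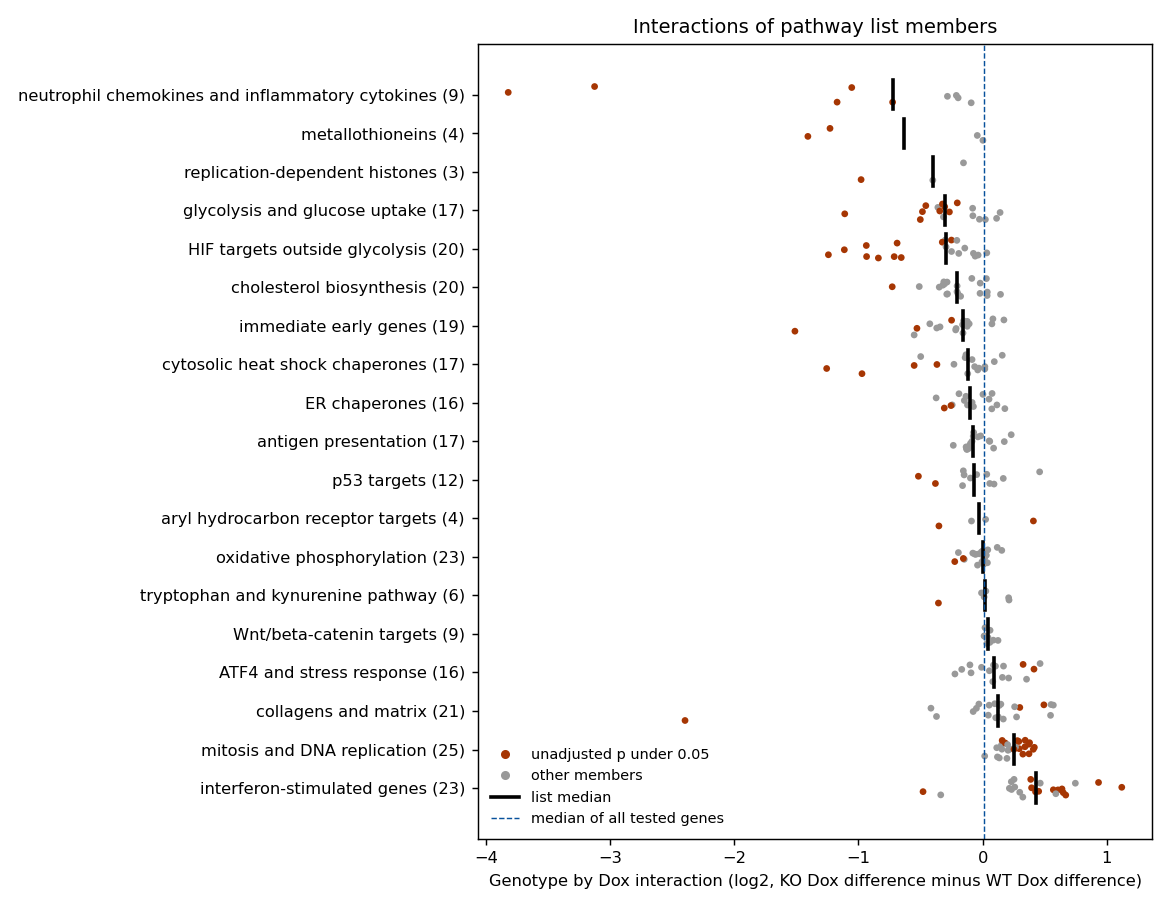
Interactions (log2, horizontal) of the tested members of 19 pathway lists, each point a gene, coloured where its unadjusted p was under 0.05, with list medians as black bars, the number tested in brackets and the dashed line at the median of all genes. Neutrophil chemokines (median -0.73), metallothioneins, glycolysis and HIF targets lie to the left, mitosis (0.25) and interferon-stimulated genes (0.43) to the right.

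Chaperone genes stood among the smallest p-values. Dnajb1, the HSP40 co-chaperone that works with HSP70, read 9.76, 9.73 and 10.20 in APC-WT tumours without Dox, 10.43, 10.13 and 10.38 in APC-WT tumours with Dox, 10.74, 10.31 and 10.60 in APC-KO tumours without Dox, and 10.05, 9.94 and 10.00 in APC-KO tumours with Dox. Without Dox the APC-KO arrays all lay above the APC-WT ones, and with Dox the order of the means was reversed. Its interaction was -0.97 ± 0.18 (adjusted p = 0.129), from -0.55 ± 0.13 in APC-KO and 0.42 ± 0.13 in APC-WT tumours. Hspa4l, of the HSP110 family, had -0.55 ± 0.10, and its 3 Dox arrays lay below the no-Dox arrays in APC-KO tumours and above them in APC-WT tumours. The inducible HSP70 gene Hspa1b had -1.26 ± 0.42, with overlap in both genotypes.

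A list of 17 tested cytosolic heat shock chaperones, added after the data were seen, had a median of -0.12 (-0.17 to -0.06 with an array left out). In it 13 were below 0 (47.8% over all genes) and 4 at an unadjusted p under 0.05 (5.61%), while the constitutive gene Hspa8 (-0.04) lay near 0. Dnajb1 and Hspa4l, already seen among the smallest p-values, are in these counts, so the counts describe the list and support nothing. Serp1, which stabilises membrane proteins at the endoplasmic reticulum under stress, read 11.16, 11.08 and 11.24 in APC-WT tumours without Dox, 11.39, 11.37 and 11.38 in APC-WT tumours with Dox, 11.42, 11.46 and 11.47 in APC-KO tumours without Dox, and 11.31, 11.35 and 11.29 in APC-KO tumours with Dox. It was lower with Dox on all APC-KO arrays and higher on all APC-WT arrays, with an interaction of -0.35 ± 0.07. Of 16 chaperone genes of the endoplasmic reticulum, 10 were below 0 (47.8% over all genes), with a median of -0.10 (-0.16 to -0.04 with an array left out). Among the 10 was Xbp1, the transcription factor of the unfolded protein response (-0.25 ± 0.09). Hspa5, its main chaperone target, had -0.08.

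Genes of myeloid cells showed smaller negative values at high levels. Lyz2, the lysozyme of macrophages and neutrophils, read 13.23, 13.03 and 13.18 in APC-WT tumours without Dox, 13.35, 13.40 and 13.42 in APC-WT tumours with Dox, 13.18, 13.16 and 13.14 in APC-KO tumours without Dox, and 13.09, 12.90 and 13.08 in APC-KO tumours with Dox. Its APC-WT Dox arrays were the 3 highest of the 12, and its APC-KO Dox arrays lay below the APC-KO no-Dox ones. Its interaction was -0.38 ± 0.08. Lyz1, a near-identical paralog whose probe set may also read Lyz2, had -0.27 ± 0.05 and the same order of groups.

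Cd14, the co-receptor for bacterial lipopolysaccharide, read 9.44, 9.14 and 9.47 in APC-WT tumours without Dox, 9.45, 9.46 and 9.68 in APC-WT tumours with Dox, 9.83, 9.77 and 9.61 in APC-KO tumours without Dox, and 9.33, 9.21 and 9.24 in APC-KO tumours with Dox, with an interaction of -0.65 ± 0.13, and it fell in APC-KO tumours (-0.48 ± 0.09). The macrophage marker Cd68 had -0.23 ± 0.07. Over the macrophage list, 13 of 16 were below 0 (47.8% over all genes), 6 at an unadjusted p under 0.05 (5.61%), with a median of -0.19. The complement gene C1qb (-0.05) lay near 0, so values differed within the list.

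Granzymes are proteases of cytotoxic lymphocytes, and Gzmd, Gzme and Gzmf belong to a cluster of near-identical copies whose probe sets may read one another. Gzmd read 6.87, 5.68 and 7.05 in APC-WT tumours without Dox, 9.00, 8.14 and 9.24 in APC-WT tumours with Dox, 7.32, 5.38 and 7.10 in APC-KO tumours without Dox, and 4.48, 6.00 and 3.26 in APC-KO tumours with Dox. All APC-WT Dox arrays lay above all 9 other arrays, and APC-KO arrays overlapped between treatments. The interaction was -4.27 ± 0.88 (adjusted p = 0.149), from -2.02 ± 0.62 in APC-KO and 2.25 ± 0.62 in APC-WT tumours, neither of which passed (adjusted p = 0.187 and 0.139). Gzmf had -3.38 ± 0.73 and Gzme -2.56 ± 0.54, or -2.66 and -1.73 with dim values raised to the filter, and Gzmd then had -3.21.

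The other cytotoxic genes named here had smaller values, of both signs, and further tested members of the list are not named. Gzmb had 0.33, Gzma -0.26, the perforin gene Prf1 -0.21, Nkg7 0.23 and the receptor gene Klrk1 0.58. The list as a whole had 6 of 10 below 0 (47.8% over all genes), with a median of -0.23. That median became -0.49 when APC-WT no Dox replicate 1 was left out and -0.02 when replicate 2 of that group was. T cell genes lay near 0, with Cd3e at 0.07, Cd8a at -0.09 and Cd4 at -0.03. Their signs are not firm: the list's median of 0.06 lay below 0 without APC-KO Dox replicate 1 (-0.05), without APC-WT Dox replicate 1 (-0.05), when APC-WT no Dox replicate 3 was left out (-0.06) and with array weights (-0.06). Icos, the inducible co-stimulator of T cells, was the T cell marker with a larger value.

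Icos read 6.31, 6.15 and 6.41 in APC-WT tumours without Dox, 5.69, 5.67 and 6.14 in APC-WT tumours with Dox, 5.64, 5.76 and 5.71 in APC-KO tumours without Dox, and 6.22, 6.00 and 5.92 in APC-KO tumours with Dox. Its groups did not overlap in either genotype, higher with Dox in APC-KO and lower in APC-WT tumours, and its interaction was 0.80 ± 0.18 (adjusted p = 0.191). Igha, the constant region of the IgA heavy chain secreted by plasma cells, read 9.09, 9.07 and 7.55 in APC-WT tumours without Dox, 6.92, 6.58 and 6.47 in APC-WT tumours with Dox, 7.16, 6.42 and 6.48 in APC-KO tumours without Dox, and 7.69, 6.58 and 7.05 in APC-KO tumours with Dox. It was high on 2 of the APC-WT no-Dox arrays, while the third lay inside the range of the other 9 arrays, 6.42 to 7.69. The interaction was 2.34 ± 0.51 (adjusted p = 0.182). The plasma cell gene Jchain lay under the filter and was not tested.

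**Figure D4:**
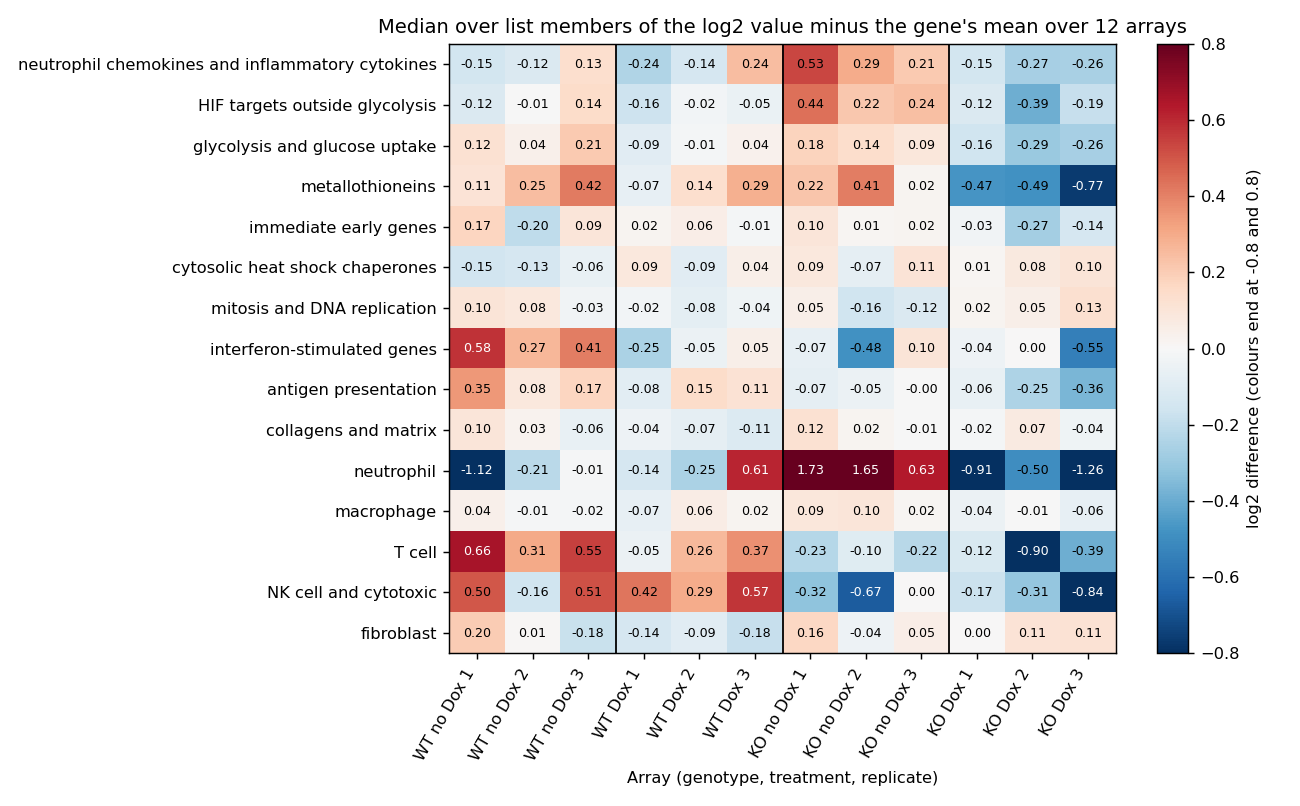
Median over the tested members of 15 gene lists (rows) of the log2 value minus the gene's mean over the 12 arrays, for each array (columns), with the value printed in each cell. Neutrophil chemokines and HIF targets are above 0 on the 3 APC-KO no-Dox arrays and below 0 on the 3 APC-KO Dox arrays, and interferon-stimulated genes are highest on the 3 APC-WT no-Dox arrays.

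Mitosis and DNA replication genes gave small interactions in 1 direction. All 25 members tested were above 0, except that the cyclin gene Ccna2 lay at -0.07 with probe sets averaged, at 0.00 just under 0 with quantile normalization added, and at -0.03 at the lowest with an array left out. Over all genes 47.8% were below 0. Of the 25, 14 had an unadjusted p under 0.05, against 6.24% of all genes with a value above 0 at that p, and the median was 0.25. None passed with Dox in either genotype. The median Dox difference was 0.13 in APC-KO and -0.13 in APC-WT tumours, and the median genotype difference, APC-KO minus APC-WT, was -0.13 without and 0.15 with Dox. Leaving out each array in turn gave medians from 0.21 to 0.31.

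Foxm1, the transcription factor of genes used in G2 and mitosis, read 8.11, 8.16 and 8.23 in APC-WT tumours without Dox, 8.04, 8.04 and 7.95 in APC-WT tumours with Dox, 8.08, 7.95 and 8.02 in APC-KO tumours without Dox, and 8.17, 8.39 and 8.26 in APC-KO tumours with Dox. Its groups did not overlap in either genotype, and the interaction was 0.42 ± 0.10 (adjusted p = 0.2). Nusap1, of the mitotic spindle, read 10.14, 10.24 and 10.01 in APC-WT tumours without Dox, 9.94, 10.00 and 9.99 in APC-WT tumours with Dox, 9.82, 9.82 and 9.80 in APC-KO tumours without Dox, and 9.95, 10.01 and 10.15 in APC-KO tumours with Dox, again without overlap in either genotype, with 0.38 ± 0.09. The kinetochore gene Cenpf had 0.37 ± 0.09 and the spindle checkpoint kinase gene Bub1b 0.37 ± 0.11. Ccna2 (0.02) and Cdk1 (0.12) were at the low end of the list.

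Other genes with roles in cell division or replication were named by smallest p or by groups that did not overlap, and were not counted as a group. Arhgap11a, a GTPase-activating protein of cell division, rose in APC-KO tumours (0.33 ± 0.07, adjusted p = 0.0457) and had an interaction of 0.46 ± 0.09. The centriole duplication gene Stil had 0.59 ± 0.13, the bromodomain gene Atad2 0.49 ± 0.11, and Parpbp, a regulator of recombination, 0.56 ± 0.13. Ticrr, which starts replication, and the helicase gene Blm had 0.50 ± 0.13 and 0.49 ± 0.13, and Rbl2, a pocket protein that represses cell cycle genes, had 0.46 ± 0.11. For Ticrr, 1 other probe set was tested and had the opposite sign.

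Of 6 measured replication-dependent histone genes 3 were tested, and H2ac19 had -0.98 ± 0.18 (adjusted p = 0.129), opposite to the mitosis genes. It read 7.30, 7.24 and 7.52 in APC-WT tumours without Dox, 7.46, 7.56 and 7.62 in APC-WT tumours with Dox, 8.26, 8.42 and 8.00 in APC-KO tumours without Dox, and 7.52, 7.17 and 7.64 in APC-KO tumours with Dox, high on the 3 APC-KO no-Dox arrays. It fell with Dox in APC-KO tumours (-0.78 ± 0.12, adjusted p = 0.0119). Histone genes of this class make messages with little or no poly(A) tail, and how such messages were primed is not stated in the labels. The 18S ribosomal RNA control, a mean over 3 probe sets, was also highest on those arrays, at 9.48, 9.76 and 9.56 against 8.96 to 9.33 on the other 9. Its own interaction was -0.47, and its part in any value here was not tested. The 3' minus 5' signals of Gapdh and Actb, which read RNA integrity, had interactions of 0.10 and 0.09.

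Interferon-stimulated genes were the list with the highest median, 0.43. Of 23 tested, 21 were above 0, 11 of them at an unadjusted p under 0.05, and Gbp2 (-0.48), which fell in APC-KO tumours, was 1 of the 2 below. Over all genes 47.8% were below 0, and 6.24% were above 0 at that p. The median Dox difference was -0.50 in APC-WT tumours and -0.02 in APC-KO tumours, so the larger Dox differences lay on the APC-WT side. Irf7, the transcription factor that amplifies interferon production, read 9.92, 9.75 and 9.69 in APC-WT tumours without Dox, 8.79, 9.01 and 9.11 in APC-WT tumours with Dox, 9.00, 8.25 and 9.40 in APC-KO tumours without Dox, and 9.43, 9.50 and 8.64 in APC-KO tumours with Dox. Its APC-WT groups did not overlap and its APC-KO groups did, with a spread between tumours as wide as the difference, and the interaction was 1.12 ± 0.35 (adjusted p = 0.263).

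Stat2, a subunit of the interferon-stimulated transcription factor, read 7.96, 7.67 and 7.64 in APC-WT tumours without Dox, 7.02, 7.10 and 7.34 in APC-WT tumours with Dox, 6.93, 6.62 and 6.92 in APC-KO tumours without Dox, and 7.08, 6.97 and 6.57 in APC-KO tumours with Dox, with 0.65 ± 0.20. The RNA sensor genes Ifih1 and Dhx58 had 0.57 ± 0.20 and 1.01 ± 0.24. The membrane protein genes Ms4a4c and Ms4a4d, which belong to no list here, had 1.14 ± 0.27 and 1.42 ± 0.34. Ms4a4d read 7.74, 7.56 and 7.85 in APC-WT tumours without Dox, 5.48, 6.08 and 6.12 in APC-WT tumours with Dox, 4.96, 4.58 and 5.41 in APC-KO tumours without Dox, and 4.77, 4.93 and 4.04 in APC-KO tumours with Dox, highest on the APC-WT no-Dox arrays and under the filter on all 6 APC-KO arrays. It fell with Dox in APC-WT tumours (adjusted p = 0.0146), so the gene passed the filter through its APC-WT arrays alone. Its interaction rests on those arrays.

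On single arrays the median of the interferon list relative to each gene's mean was 0.58, 0.27 and 0.41 in APC-WT tumours without Dox and -0.25, -0.05 and 0.05 with Dox. In APC-KO tumours it was -0.07, -0.48 and 0.10 without and -0.04, 0.00 and -0.55 with Dox. The APC-KO tumours thus varied among themselves more than their Dox difference. T cell markers, in the same measure, read 0.66, 0.31 and 0.55 without Dox and -0.05, 0.26 and 0.37 with Dox in APC-WT tumours. Their part in the interferon values was not tested. Antigen presentation genes had a median interaction of -0.08, with 12 of 17 below 0 (47.8% over all genes) and none at an unadjusted p under 0.05. The median was -0.18 without APC-KO Dox replicate 1, and it lay above 0 without APC-WT no Dox replicate 2 (0.05), APC-KO Dox replicate 3 (0.02) or APC-WT Dox replicate 2 (0.00).

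Matrix and fibroblast genes lay mostly above 0. Of 21 collagen and matrix genes 15 were above 0, with a median of 0.13 (0.05 to 0.17 with an array left out). Of 12 fibroblast markers 9 were above 0, with a median of 0.25 and 4 at an unadjusted p under 0.05. Over all genes 47.8% were below 0, and 6.24% were above 0 at that p. Col1a1, the main chain of type I collagen, read 10.54, 10.30 and 10.20 in APC-WT tumours without Dox, 10.18, 9.99 and 9.87 in APC-WT tumours with Dox, 10.43, 10.42 and 10.21 in APC-KO tumours without Dox, and 10.48, 10.57 and 10.49 in APC-KO tumours with Dox. Its groups did not overlap in either genotype, higher with Dox in APC-KO and lower in APC-WT tumours, and the interaction was 0.49 ± 0.13. Its partner chain Col1a2 had 0.30 ± 0.10, and dermatopontin, a small matrix protein (gene Dpt), 1.21 ± 0.42. Of its 12 values 6 were under the filter, and the interaction was 0.75 with these raised to it.

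Serpinf1, the gene of PEDF, a secreted inhibitor of vessel growth, rose in APC-KO tumours (0.78 ± 0.15, adjusted p = 0.0338) and had 0.99 ± 0.21. It read 9.38, 9.63 and 9.21 in APC-WT tumours without Dox, 9.38, 9.18 and 9.03 in APC-WT tumours with Dox, 9.71, 9.23 and 9.37 in APC-KO tumours without Dox, and 9.91, 10.35 and 10.39 in APC-KO tumours with Dox, with the 3 APC-KO Dox arrays above all 9 others. The collagenase gene Mmp13 lay far on the other side, at -2.40 ± 0.61, and read 7.89, 7.36 and 8.45 in APC-WT tumours without Dox, 6.93, 7.97 and 8.70 in APC-WT tumours with Dox, 8.69, 7.58 and 8.30 in APC-KO tumours without Dox, and 6.55, 5.50 and 5.22 in APC-KO tumours with Dox. It fell in APC-KO tumours (-2.43 ± 0.43, adjusted p = 0.0257). Among endothelial markers the median was 0.07, or -0.04 without APC-WT no Dox replicate 2, and Vwf, the von Willebrand factor, had -0.54 ± 0.18. Markers of other cells that the samples could hold varied without a gene at an adjusted p under 0.05. Skeletal muscle markers had a median of -0.69 over 4 tested genes, which ran from -1.36 without APC-WT Dox replicate 2 to -0.05 without APC-KO Dox replicate 3 and was 0.39 with array weights, and their values spread widely within groups. The median over 5 dendritic cell markers was 0.23, but -0.02 without APC-WT no Dox replicate 1 and -0.04 with array weights. No erythroid marker was tested.

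Metabolic lists outside glycolysis showed little. Cholesterol biosynthesis had a median of -0.21 with 16 of 20 below 0 (47.8% over all genes). At an unadjusted p under 0.05 there was 1 (5.61% over all genes): Hsd17b7, of the late pathway, at -0.73 ± 0.21. That median moved between -0.35 and -0.05 as single arrays were left out, so APC-WT no Dox replicates 1 and 2, which set these bounds, decide much of it. Oxidative phosphorylation had a median of 0.00 over 23 genes (-0.03 to 0.02 with an array left out), 11 below and 12 above 0, with the complex I gene Ndufb5 at -0.22 ± 0.06. Targets of ATF4, the transcription factor of the amino acid response, had 0.10 over 16 genes, from -0.01 without APC-KO Dox replicate 3 to 0.21 without APC-KO Dox replicate 2. Nupr1, a stress-induced chromatin protein, had 0.41 ± 0.13, and Pck2, the mitochondrial phosphoenolpyruvate carboxykinase, 0.33 ± 0.14, after a rise in APC-KO tumours (0.49 ± 0.10).

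The pathways named by the design gave values near 0. The 9 tested Wnt/beta-catenin targets all lay above 0, between 0.01 for Myc and 0.12 for Bmp4, with a median of 0.04 and none at an unadjusted p under 0.05. Lef1 had 0.09 and Axin2 0.02. These signs are not firm: up to 3 of the 9 lay below 0 with an array left out, and with probe sets averaged 4 of 8 did, with a median of 0.00. Of 14 tryptophan and kynurenine genes 6 were tested, with a median of 0.02 (-0.02 to 0.07 with an array left out), and Kyat3, a kynurenine aminotransferase, had -0.36 ± 0.13. The other 8, among them Ido1, Kmo and Kynu, lay under the filter like Tdo2.

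Aryl hydrocarbon receptor targets split. Tiparp, a direct target that feeds back on the receptor, read 9.89, 10.07 and 9.98 in APC-WT tumours without Dox, 9.69, 9.90 and 9.81 in APC-WT tumours with Dox, 10.14, 10.37 and 10.10 in APC-KO tumours without Dox, and 9.73, 9.66 and 9.64 in APC-KO tumours with Dox. It fell with Dox in APC-KO tumours (-0.53 ± 0.08, adjusted p = 0.00995) and had an interaction of -0.35 ± 0.11. Nqo1, a quinone reductase also driven by NRF2, had 0.41 ± 0.15 in the other direction. Cyp1a1 and Cyp1b1, the defining targets, lay under the filter.

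Other single genes stood at the front without a list. Eif1ad read 9.09, 9.11 and 9.21 in APC-WT tumours without Dox, 9.56, 9.51 and 9.51 in APC-WT tumours with Dox, 9.54, 9.46 and 9.55 in APC-KO tumours without Dox, and 9.51, 9.47 and 9.51 in APC-KO tumours with Dox. The 3 APC-WT no-Dox arrays were the lowest and the other 9 lay within 9.46 to 9.56, which gave an interaction of -0.41 ± 0.07 (adjusted p = 0.129). Cdh26, a cadherin, had the smallest p above 0 among genes with a name (1.01 ± 0.19, adjusted p = 0.129) and read 8.17, 7.97 and 7.83 in APC-WT tumours without Dox, 7.39, 7.44 and 7.53 in APC-WT tumours with Dox, 7.11, 6.47 and 6.68 in APC-KO tumours without Dox, and 7.10, 7.27 and 7.33 in APC-KO tumours with Dox. Its APC-WT groups did not overlap and its APC-KO groups did.

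Genes whose groups did not overlap in either genotype and lay in opposite directions included the atypical chemokine receptor gene Ackr3 (-0.68 ± 0.19), the coenzyme Q binding gene Coq10b (-0.55 ± 0.14), the ribosomal RNA methyltransferase gene Dimt1 (-0.47 ± 0.12), the homeobox gene Shox2 (-0.40 ± 0.08), and Tram1l1, St7l, Slc35g1 and Macrod1 (-0.53, -0.47, -0.70 and -0.49). In the other direction these were the tyrosine kinase gene Frk (0.64 ± 0.13), the transfer RNA methyltransferase gene Trmt2b (0.47 ± 0.10) and the splicing factor gene Nova1 (0.53 ± 0.14). Frk read 7.01, 6.80 and 6.63 in APC-WT tumours without Dox, 6.39, 6.32 and 6.45 in APC-WT tumours with Dox, 6.69, 6.85 and 6.68 in APC-KO tumours without Dox, and 6.98, 6.98 and 6.90 in APC-KO tumours with Dox. The kinase gene Prkd3 (0.42 ± 0.10) separated in APC-WT tumours only. Cdh1, which encodes E-cadherin of epithelial cells, had 0.80 ± 0.24. All 3 of its APC-WT Dox values were under the filter, and the interaction was 0.34 with values raised to it. Ccng2 was lower with Dox on every array in both genotypes, and its interaction of 0.35 ± 0.13 is a difference in size.

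Single arrays set how many genes passed. Without APC-WT no Dox replicate 3, 119 genes passed the interaction test, 45 below and 74 above 0, and 116 of them had an unadjusted p under 0.05 on all 12 arrays. Without APC-KO no Dox replicate 1, 1 gene passed, Cdh26 (1.19), and without each of the other 10 arrays none did, with unadjusted counts between 908 and 1349. APC-WT no Dox replicate 3 had the largest median difference from the other 2 arrays of its group, 0.106, against 0.0558 to 0.102 for the other arrays. With arrays weighted by their agreement with their group, 13 genes passed, 8 below and 5 above 0, among them Slc2a1, Serp1, Dnajb1, H2ac19, Lyz2, Cdh26, Frk, Serpinf1, Igha and Stil. Of these 13, 12 were among the 119. The weighting gave APC-WT no Dox replicate 3 the lowest weight, 0.49, so it changed the fit in a like way and the overlap is no independent support. The array with the next largest difference, APC-WT no Dox replicate 1 (0.102), gave 0 genes when left out. Neither setting replaces the count of 0 on all arrays.

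**Figure D5:**
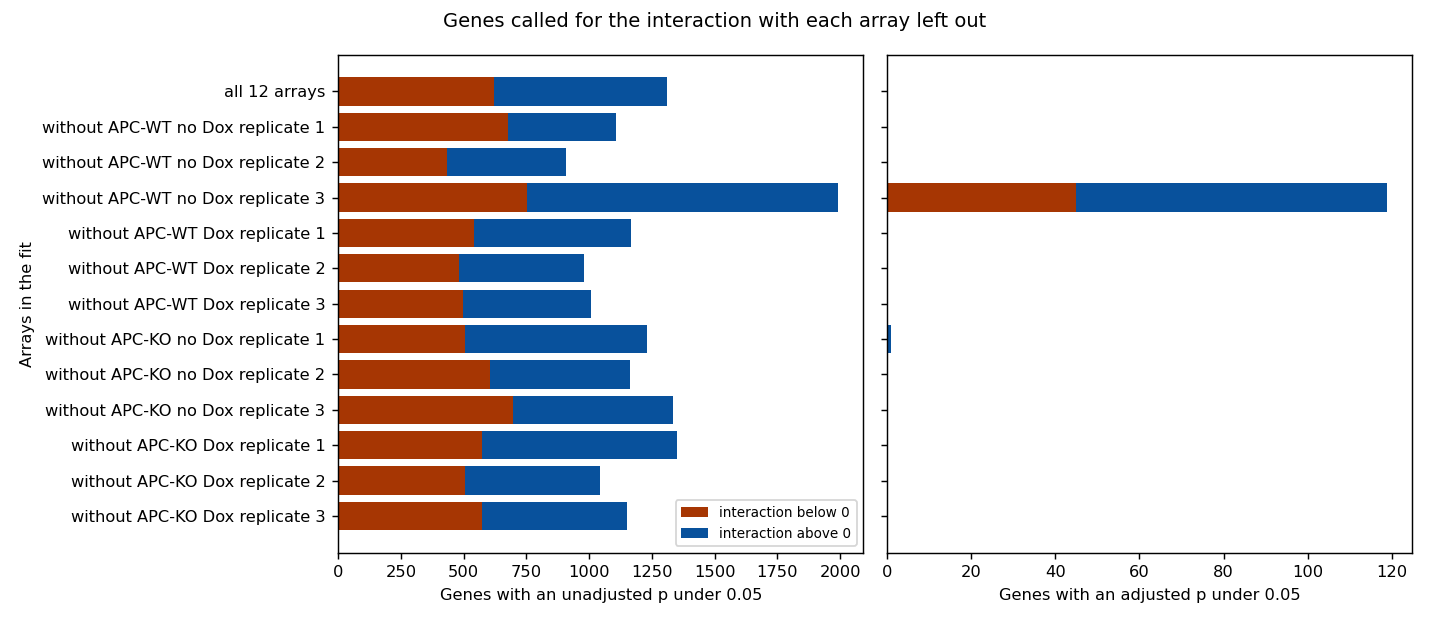
Number of genes (horizontal) with an unadjusted p under 0.05 (left) and an adjusted p under 0.05 (right) for the interaction, with all 12 arrays and with each array left out, split into values below and above 0. Without APC-WT no Dox replicate 3 the counts rise to 1993 and 119, and in the other rows they lie between 908 and 1349, and at 0 or 1.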

How the data were processed

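The deposited log2 values were normalized by the authors, and MAS5 was used per the submitters' processing notes, with neither version nor settings given in the sources used here. The log2 scale was read from the values, which ran from 1.86 to 14.16. Array medians lay between 5.53 and 5.58, correlations of arrays within a group between 0.991 and 0.997, and no arrays were identical. The number of arrays limits the precision.

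Of 45101 probe sets, 64 controls were left out, 34945 had 1 gene symbol, 932 several and 9160 none, and 34741 were matched to RefSeq by Entrez identifier. The probe set with the highest mean stood for its gene, and genes with a mean under 5.55, the median of the non-control probe sets, were left out. A group-means model over 12 arrays was fitted with limma 3.58.1 (eBayes with a trend, R 4.3.3) and tested on simulated data. All tests were 2-sided, with Benjamini-Hochberg adjustment over the 11070 genes and a threshold of 0.05. The alternatives were other filters, probe set rules and normalizations, array weights, a replicate block and each array left out.

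The comparison, the named genes and the lists were chosen with earlier results of these data known, while the genes tested were all those over the filter. The rule named Tdo2, Apc, the 15 genes of smallest interaction p in each direction, up to 8 genes in each direction by size that did not overlap in either genotype, up to 5 members of a pathway list and 3 of a marker list by smallest p, and 10 that passed with Dox. Unnamed and predicted genes were skipped. List members named beyond this were chosen after their values were seen, to show the range of a list. Figures were drawn with matplotlib 3.10.9.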

Additional observations from a re-analysis of the deposited data

Results flagged for a closer look

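The 18S ribosomal RNA control probe sets, which enter no comparison of genes, had a signal above the control level of the APC-WT arrays without Dox on all 3 APC-KO arrays without Dox. The means were 9.28 in APC-WT tumours without Dox, 9.23 with Dox, 9.60 in APC-KO tumours without Dox and 9.08 with Dox, which gave an interaction of -0.47 on the log2 scale, with no test.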

How the results depend on the processing

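The count of 0 genes for the interaction was 13 with array weights and 1 with values under the filter raised to it (Ms4a4d, whose 6 APC-KO values then all equal the filter, so that only its APC-WT arrays vary), and 0 with eBayes without a trend, each probe set by itself, probe sets averaged, no filter, a filter at the 75th percentile, quantile normalization added or a replicate block. Leaving out each array gave 0 to 119. At an unadjusted p under 0.05 the count of 1312 became 1985 with array weights and 2309 with each probe set by itself, and 908 to 1993 with an array left out. The 60 genes of Dox in APC-KO tumours became 29 without a trend, 109 with each probe set by itself and 35 with the mean of probe sets, and 1 to 92 with an array left out, the lowest without APC-KO Dox replicate 3 (1), APC-KO no Dox replicate 1 (4) and APC-KO Dox replicate 2 (14). The 3 genes of Dox in APC-WT tumours became 653 with array weights, 6 with each probe set by itself, 0 with the mean of probe sets, 6 with the replicate block and 5 with values raised, and 0 to 418 with an array left out, with 418 without APC-WT no Dox replicate 3. The cause of these shifts was not tested. For the 106 tested genes whose interaction is given, 2071 values were computed under the alternatives: 1985 kept sign and side of the threshold, 58 kept sign and then passed, and 28 changed sign. These 28 lay in 11 genes close to 0. With probe sets averaged C1qb was 0.0673, Ccna2 -0.0651 and Lef1 -0.0156, and with quantile normalization Ccna2 was -0.000468. With an array left out Axin2 ran from -0.106 to 0.0994, Ccna2 from -0.0298 to 0.0765, Cd3e from -0.0257 to 0.171, Cd8a from -0.218 to 0.116, Hspa8 from -0.0864 to 0.0033, Myc from -0.0931 to 0.112, Prf1 from -0.341 to 0.0144, Slc2a3 from -0.056 to 0.102 and Stc2 from -0.029 to 0.075. Of 673 list medians, 33 moved by more than the SD between replicates. The labels number the replicates alike in each group and do not say whether a number is a shared animal, litter or day. Deviations of same-numbered arrays correlated between -0.221 and 0.175 over 18 pairs, 4 of them over 0.1. With 3 arrays in a group such correlations cannot decide whether a number is shared in that way.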
